A study of Homo sapiens with 16 samples.

Results

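The 34 genes described here encode the enzymes that build purine and pyrimidine nucleotides, the folate enzymes that feed them, the kinases that finish them and the salvage and transport proteins that recycle them. They were chosen by name as members of these pathways, and all 34 were found among the 57500 genes of the count tables by matching Ensembl identifiers to symbols. They comprise 13 purine genes, 5 pyrimidine genes, 4 folate genes, 5 genes of deoxynucleotide supply, 4 nucleotide kinases and 3 genes of salvage and nucleoside transport. NCI-H929 is an established line of human multiple myeloma, a plasma cell cancer, and its RNA was sequenced in bulk in 4 groups of 4 libraries. In one experiment, cells treated with compound 27 at 3 nM for 6 h were compared with cells given DMSO, the solvent, for 6 h. Compound 27 is a degrader, which marks a protein for destruction, here p300, the histone acetyltransferase that EP300 encodes. In the other experiment, cells with the label p300 KO were compared with cells with the label NTC. The labels do not tell how the p300 KO cells were made, whether they are 1 clone, or whether replicates came from different cultures. The p-values thus measure only the spread between these libraries, which may be technical.

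Purine synthesis builds its ring atom by atom on phosphoribosyl pyrophosphate (PRPP) up to inosine monophosphate (IMP), from which AMP and GMP branch, whereas pyrimidine synthesis makes its ring first and then attaches it to PRPP to give UMP and, later, CTP. One-carbon units carried on folate are used in the purine ring and in the methyl group of thymidylate, and ribonucleotide reductase turns ribonucleotides into the deoxynucleotides that DNA is copied from. Proliferating cells make most of their nucleotides by these routes, many of the genes are known targets of MYC, and those of deoxynucleotide supply are known to be raised in S phase.

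Library depth ran from 12590308 to 23120350 counts. Levels are counts scaled to library size (CPM). Over total counts, 3 counts, the limit that a count of 0 allows, are 0.130 to 0.238 CPM. The CPM of members were TMM-scaled besides, so this floor is not on their scale. The lowest level of a member was 0.43 CPM, of CTPS2 in DMSO 1. The lowest counts were 7 for ADSS1 and 8 for CTPS2. A pair of libraries stood apart. Counts of the mitochondrial genome took 64.9% of degrader 2 and 47.7% of p300 KO 1, against 5.99 to 23.5% in the other 14 libraries. Counts of calls, and the fold changes of members called with the degrader or in the KO, are therefore given with and without them. The other degrader libraries had 5.99, 6.29 and 6.96% mitochondrial counts and the DMSO libraries 13.4 to 23.5%, so that this share also separated those groups. The targeted gene EP300 measured 50.2, 38.1, 34.04 and 37.4 CPM in p300 KO, against 99.97, 92.5, 91.03 and 94.6 CPM in NTC, which is −1.25 ± 0.11 on the log2 scale (fold change ± SE, adjusted p = 2.20e-04) and −1.37 ± 0.06, adjusted p = 4.21e-24 without p300 KO 1. Here and in all that follows, fold changes are log2 values ± SE, and adjusted p-values are Benjamini-Hochberg values over all genes from edgeR, by its quasi-likelihood test. With the degrader, which acts on the protein, it measured 49.9, 141, 48.1 and 49.9 CPM, against 35.8, 45.3, 43.9 and 41.4 CPM in DMSO. The highest value was that of degrader 2, and the fold change was 0.79 ± 0.35, adjusted p = 0.249 with it and 0.24 ± 0.09, adjusted p = 0.0531 without it. Levels of cell type markers are CPM over total counts, mitochondrial ones included, without TMM scaling. On that scale the large mitochondrial shares of degrader 2 and p300 KO 1 lower their values and thus can widen the ranges of their groups. All 9 plasma cell markers averaged at least 1 CPM in each group. Of 4 T cell markers, 2 averaged at least 1 CPM, and CD3D was at 0 in the degrader and DMSO groups. Their summed level was 5.8 to 28.8 CPM with the degrader, against 38.02 to 45.1 CPM in DMSO. In p300 KO it was 21.2 to 39.2 CPM, against 47.3 to 53.3 CPM in NTC. Of 4 NK cell markers, 3 averaged at least 1 CPM, with sums of 25.8 to 70.9 CPM with the degrader and 52.8 to 64.1 CPM in DMSO, which overlap, and of 50.5 to 76.3 CPM in p300 KO, against 83.0 to 88.2 CPM in NTC. The sums of 4 monocyte markers were 0.397 to 0.9 CPM with the degrader and 1.15 to 1.46 CPM in DMSO, and 4.47 to 5.08 CPM in p300 KO and 7.43 to 11.6 CPM in NTC. The sums of 4 markers of earlier B cells were 6.13 to 9.45 CPM with the degrader, above the 4.76 to 6.08 CPM in DMSO. They were 4.59 to 5.71 CPM in p300 KO, below the 9.41 to 11.1 CPM in NTC. The part of these markers in the results was not tested. In bulk samples a lower share of cells with a transcript and less transcript per cell cannot be told apart.

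Levels of different members were compared per length, as CPM of the non-mitochondrial counts per kilobase of gene. On this scale the mean over both control groups was highest for IMPDH2, the main IMP dehydrogenase of dividing cells, at 163 ± 12.99 in DMSO and 186 ± 6.33 in NTC (mean ± SD, n = 4 each). By that mean APRT, NME2, RRM2 and HPRT1 followed. Their order differed between the experiments. APRT averaged 158 ± 13.5 in DMSO and 102 ± 4.001 in NTC, while NME2 averaged 124 ± 29.2 in DMSO and 121 ± 2.53 in NTC. The lowest levels were those of CTPS2, with 0.1497 ± 0.0454 in DMSO and 0.457 ± 0.0392 in NTC, and of ADSS1, with 0.198 ± 0.0792 in DMSO and 0.699 ± 0.0483 in NTC. In 3 pairs of sister enzymes, 1 gene lay far above the other: IMPDH2 lay above IMPDH1 (26.4 ± 2.005 in DMSO), CTPS1 (16.96 ± 1.97 in DMSO) above CTPS2, and ADSS2 (16.1 ± 1.58 in DMSO) above ADSS1. The PRPP synthetases showed no such fixed order, since PRPS1 averaged 28.1 ± 5.87 and PRPS2 31.1 ± 2.73 in DMSO, but PRPS1 averaged 104 ± 3.703 and PRPS2 18.001 ± 1.05 in NTC. In GRCh38 the genes that the results turn on most lie on different chromosomes. PFAS (ENSG00000178921) lies at chr17:8247618-8270491, SLC29A1 (ENSG00000112759) at chr6:44219505-44234151 and RRM2 (ENSG00000171848) at chr2:10122328-10131419, all on the plus strand. SLC19A1 (ENSG00000173638) lies at chr21:45493572-45544411 on the minus strand, where it overlaps COL18A1. PRPS1 (ENSG00000147224) lies at chrX:107628424-107651026, CTPS1 (ENSG00000171793) at chr1:40979335-41012565 and TYMS (ENSG00000176890) at chr18:657604-673578, all on the plus strand. The values are counts of whole genes.

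**Figure D1:**
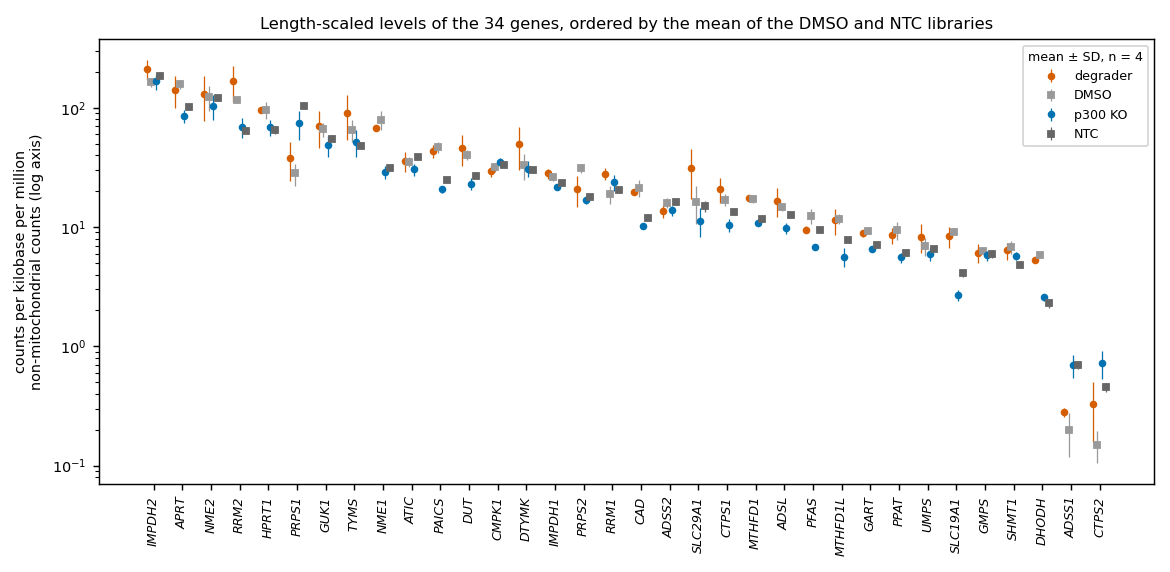
Length-scaled level of each of the 34 genes (log axis, non-mitochondrial CPM per kilobase) as mean and SD of the 4 libraries in the degrader, DMSO, p300 KO and NTC groups. IMPDH2 is at the top, with 163 in DMSO and 186 in NTC, and ADSS1 and CTPS2 lie below 1 in every group.

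The first comparison asked which of these genes differ after 6 h with the degrader. In the 8 libraries of that experiment, edgeR's quasi-likelihood test called 0 of the 34 genes, where 1.64% of all 15872 genes tested were called higher and 3.12% lower. The groups did not overlap for 2 members on the higher side, RRM1 and CTPS2, and for PRPS2 on the lower side. Over all genes 7.6% lay apart on the higher and 9.24% on the lower side. Of the members, 5 had an unadjusted p under 0.05, and DESeq2 called 1, RRM1, the large subunit of ribonucleotide reductase (log2 fold change 0.66, adjusted p = 0.0073). DESeq2 called 5% of all genes higher and 6.32% lower. The median log2 fold change was 0.09 over the members and 0.05 over all genes tested. Degrader 2 lay below the other 3 degrader libraries in most of these genes, often below DMSO as well.

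Without degrader 2, 13 members were higher and 1 was lower, where 18.2% of the 16297 genes tested were higher and 20.3% were lower. The members' median was 0.21, against −0.04 for all genes. The 3 remaining degrader libraries lay above all DMSO libraries in 14 members and below them in 1, against 22.6% and 22.2% of all genes. By step, the 13 took in all 5 deoxynucleotide genes, 2 of 5 genes of UMP and CTP synthesis and 2 of 4 nucleotide kinases, but 1 of 6 genes of the purine ring and none of the 4 folate genes. When libraries were scaled by their total count instead, the median of all genes moved by 0.11, 18 members were higher and 0 lower, and the split over all genes was 4215 higher and 2468 lower in place of 2970 higher and 3308 lower. With mitochondrial counts taken out of the library sizes, 14 members were higher and 1 lower, against 19.4% and 19.4% of all genes. The part of the groups' unlike mitochondrial shares in these results was not tested otherwise.

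**Figure D2:**
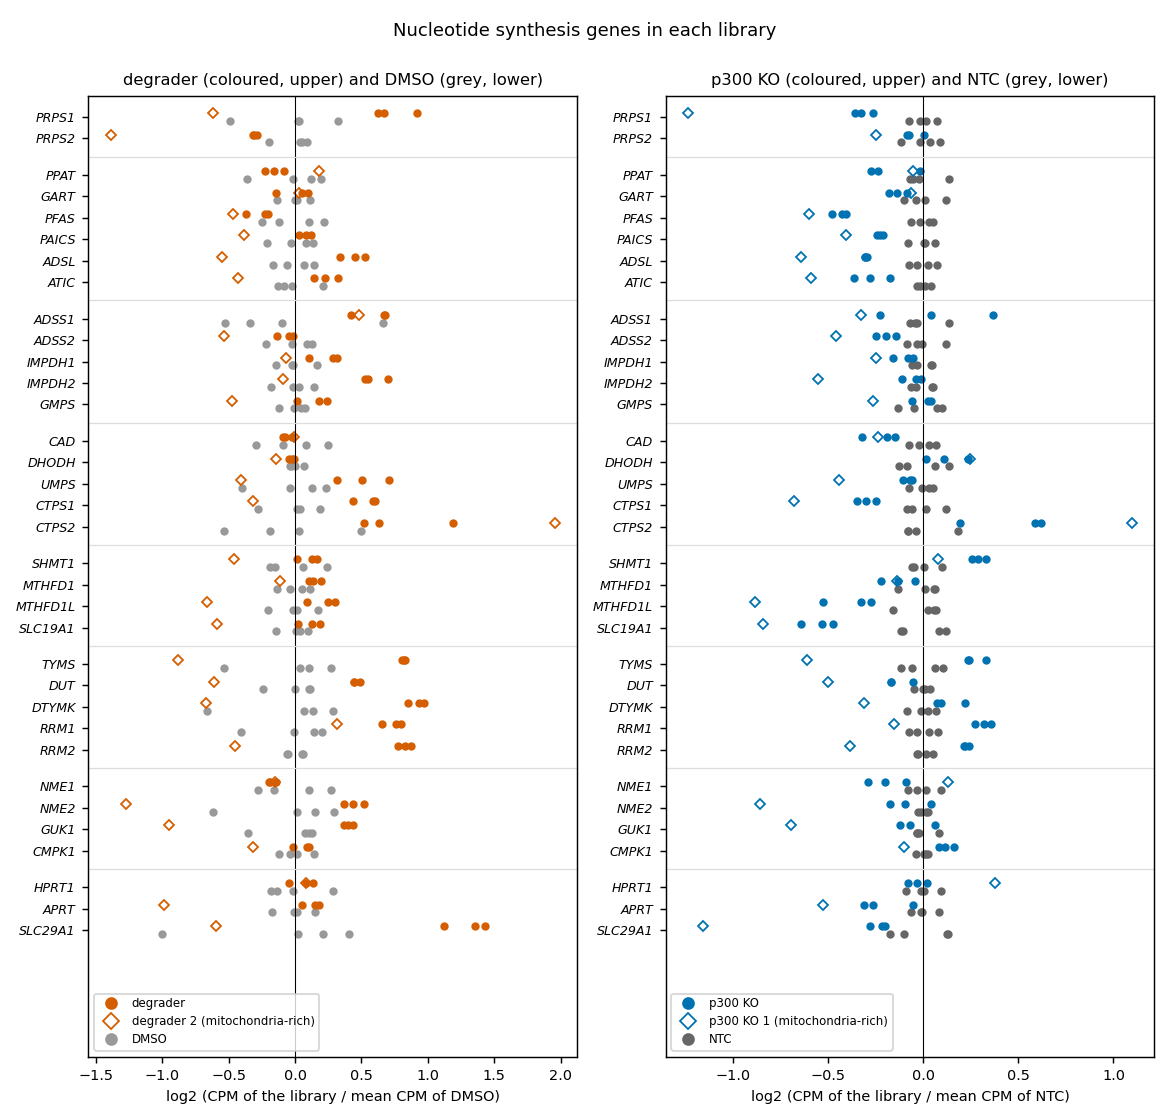
log2 of each library's CPM over the mean of its control group for every member, with the degrader and DMSO libraries at left and the p300 KO and NTC libraries at right; open diamonds mark the mitochondria-rich libraries. For RRM2, 3 degrader libraries lie at 752 to 805 CPM, above every DMSO library, and degrader 2 lies at 322 CPM.

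All 5 genes of deoxynucleotide supply were higher with the degrader once degrader 2 was left out. RRM2, the small and cell-cycle-regulated subunit of ribonucleotide reductase, had 779, 322, 805 and 752 CPM with the degrader, against 423, 457, 421 and 456 CPM in DMSO. The treated libraries other than degrader 2 were all above DMSO, and without degrader 2 the log2 fold change was 0.82 ± 0.08 (adjusted p = 6.82e-06), against 0.60 ± 0.27 (adjusted p = 0.246) with it. RRM1 had 103, 74.2, 101 and 93.9 CPM with the degrader, against 59.1, 68.5, 44.9 and 65.6 CPM in DMSO. Here degrader 2, too, was above each DMSO library, so the groups did not overlap with all libraries in place, and the log2 fold change was 0.64 ± 0.17, adjusted p = 0.0657 with degrader 2 and 0.73 ± 0.12, adjusted p = 4.75e-04 without it.

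TYMS, thymidylate synthase, had 217, 66.4, 218 and 214 CPM with the degrader, against 126, 148, 84.5 and 132 CPM in DMSO. Degrader 2 was the lowest of the 8 and the other treated libraries were the highest. The log2 fold change was 0.81 ± 0.14, adjusted p = 6.27e-04 without degrader 2 and 0.55 ± 0.35, adjusted p = 0.425 with it. ENOSF1, whose span, introns included, overlaps the end of TYMS on the opposite strand by 3255 bases, went the other way without degrader 2 (−0.38 ± 0.10, adjusted p = 0.0107). Whether counting used strand is not given in the sources used here, and reads of the shared stretch may be assigned to either gene or to neither. DTYMK, the kinase that turns dTMP into dTDP, had 121, 38.7, 118 and 111 CPM with the degrader, against 64.6, 75.04, 38.9 and 67.7 CPM in DMSO. The log2 fold change of DTYMK was 0.91 ± 0.16, adjusted p = 6.58e-04 without degrader 2 and 0.66 ± 0.35, adjusted p = 0.328 with it. DMSO 3, which had the highest mitochondrial share of that group, was the lowest control for DTYMK. It was the lowest control for every other member called higher without degrader 2 as well. With DMSO 3 also left out, 13 members were higher and 2 lower, against 19.6% and 21.1% of all genes. DUT, which removes dUTP and yields the substrate of TYMS, had 153, 73.7, 158 and 152 CPM with the degrader, against 112, 121, 94.9 and 121 CPM in DMSO. Its log2 fold change was 0.45 ± 0.10, adjusted p = 0.00253 without degrader 2 and 0.26 ± 0.23, adjusted p = 0.574 with it.

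Without degrader 2 the largest log2 fold change of the 34 belonged to SLC29A1, the equilibrative nucleoside transporter ENT1, which carries nucleosides across the plasma membrane. It had 111, 27.4, 106 and 89.9 CPM with the degrader, against 47.9, 54.9, 20.7 and 41.9 CPM in DMSO. Apart from degrader 2 the treated libraries lay above every DMSO library, with a log2 fold change of 1.29 ± 0.22, adjusted p = 4.67e-04; with all 8 libraries it was 1.02 ± 0.43, adjusted p = 0.223. The salvage enzymes were different. HPRT1, which salvages hypoxanthine and guanine, had 115, 125, 130.2 and 125 CPM with the degrader, against 108, 104, 145 and 117 CPM in DMSO. APRT, which salvages adenine, had 224, 109, 245 and 239 CPM with the degrader, against 239, 215, 192 and 218 CPM in DMSO; their groups overlapped, with log2 fold changes of 0.05 ± 0.11, adjusted p = 0.714 for HPRT1 and 0.12 ± 0.09, adjusted p = 0.321 for APRT without degrader 2.

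PRPP supply was split between its sister enzymes. PRPS1 had 92.04, 31.7, 77.5 and 75.3 CPM with the degrader, against 49.6, 60.9, 34.7 and 49.8 CPM in DMSO. PRPS2 had 53.2, 24.8, 52.4 and 52.1 CPM with the degrader, against 56.7, 67.3, 68.96 and 66.6 CPM in DMSO. Without degrader 2, PRPS1 was higher (0.73 ± 0.14, adjusted p = 0.00146) and PRPS2 was lower (−0.31 ± 0.09, adjusted p = 0.0118). With all libraries neither was called (0.51 ± 0.30, adjusted p = 0.389 for PRPS1 and −0.50 ± 0.23, adjusted p = 0.256 for PRPS2). The call of PRPS2 was lost when degrader 1, 3 or 4 was also left out (adjusted p 0.0587 to 0.0749) and with total count scaling (0.115).

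In the purine ring, ADSL, adenylosuccinate lyase, which acts once in the ring and again on the way to AMP, was the 1 of 6 genes that was higher. It had 115, 54.4, 109 and 101 CPM with the degrader, against 76.5, 87.9, 70.9 and 83.5 CPM in DMSO, and the log2 fold change was 0.43 ± 0.09, adjusted p = 0.00282 without degrader 2 and 0.25 ± 0.22, adjusted p = 0.559 with it. PPAT, the committing amidotransferase, had 36.5, 43.7, 34.5 and 32.9 CPM with the degrader, against 29.9, 38.1, 44.2 and 41.9 CPM in DMSO. PFAS, which adds a glutamine nitrogen to the growing ring, had 52.9, 44.03, 51.99 and 47.1 CPM with the degrader, against 71.02, 55.9, 51.2 and 65.6 CPM in DMSO. Both pairs of groups overlapped. Their log2 fold changes without degrader 2 were −0.16 ± 0.11, adjusted p = 0.272 for PPAT and −0.28 ± 0.11, adjusted p = 0.063 for PFAS, which lies on the other side of 0 from ADSL. PFAS passed as lower when DMSO 2 (adjusted p = 0.0387) or DMSO 3 (0.00284) was left out as well, and PPAT when DMSO 1 was (0.0346). GART, PAICS and ATIC, which carry out steps between these and close the ring, had 0.01, −0.02 and 0.09 with all libraries and were not called. ATIC came nearest without degrader 2 (0.22 ± 0.10, adjusted p = 0.0814). It was called there with total count scaling (adjusted p = 0.0259), without DMSO 2 (0.0105), with the replicate number as a block (0.033) and without a filter (0.0469).

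On the way from IMP to AMP and GMP, IMPDH2 had 556, 322, 501 and 493 CPM with the degrader, against 349.6, 379, 302 and 339.8 CPM in DMSO. It was higher without degrader 2 (0.58 ± 0.10, adjusted p = 4.08e-04) but not with it (0.45 ± 0.18, adjusted p = 0.202), with the 3 remaining treated libraries above DMSO. Its sister IMPDH1 had 91.02, 70.03, 89.3 and 78.6 CPM with the degrader, against 72.4, 82.2, 66.3 and 72.1 CPM in DMSO and was not called (0.23 ± 0.09, adjusted p = 0.0702), although it passed as higher without DMSO 2 (0.0165) or degrader 4 (0.0438). IMPDH1 also passed with total count scaling (0.0208), with the replicate number as a block (0.0409), without a filter (0.0438) and without mitochondrial counts (0.0493). The remaining members of this step were GMPS, the GMP synthetase (0.14 ± 0.09, adjusted p = 0.236), ADSS2 (−0.07 ± 0.09, adjusted p = 0.551) and the sparsely expressed ADSS1 (0.58 ± 0.31, adjusted p = 0.154), the adenylosuccinate synthases. ADSS1 had 1.16, 1.21, 1.39 and 1.38 CPM with the degrader, against 0.811, 0.686, 0.603 and 1.37 CPM in DMSO. ADSS2 had 44.1, 30.9, 43.1 and 40.6 CPM with the degrader, against 38.4, 48.7, 43.9 and 47.5 CPM in DMSO. None of these 3 was called, although ADSS1 passed as higher when DMSO 4 was left out as well (adjusted p = 0.0424).

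Of the pyrimidine genes, UMPS, which makes UMP from orotate, had 65.1, 30.2, 56.8 and 49.8 CPM with the degrader, against 38.9, 46.9, 30.2 and 43.7 CPM in DMSO. CTPS1, CTP synthase 1, had 106, 56.5, 107 and 95.3 CPM with the degrader, against 72.1, 79.8, 58.04 and 71.1 CPM in DMSO. Both were higher without degrader 2 (0.51 ± 0.13, adjusted p = 0.00864 for UMPS and 0.54 ± 0.11, adjusted p = 0.00139 for CTPS1). Neither was called with it (0.34 ± 0.23, adjusted p = 0.453 for UMPS and 0.38 ± 0.21, adjusted p = 0.345 for CTPS1). CAD, the trifunctional enzyme that opens the route, had 129, 135, 127 and 134 CPM with the degrader, against 162, 128, 111 and 144 CPM in DMSO. DHODH, the mitochondrial dehydrogenase of the route, had 29.97, 27.6, 30.3 and 29.4 CPM with the degrader, against 29.6, 31.9, 30.4 and 29.8 CPM in DMSO. Their groups overlapped, and neither was called (−0.07 ± 0.11, adjusted p = 0.628 for CAD; −0.03 ± 0.08, adjusted p = 0.77 for DHODH). CTPS2, CTP synthase 2, had 0.968, 2.43, 0.895 and 1.43 CPM with the degrader, against 0.432, 0.6398, 0.549 and 0.881 CPM in DMSO. Degrader 2 was the highest of these libraries, the groups did not overlap, and the log2 fold change was 1.09 ± 0.39, adjusted p = 0.156 with all libraries, which passed the threshold in 1 fit of all 16 libraries (adjusted p = 0.0358) and without degrader 2 under total count scaling (0.045).

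None of the 4 folate genes was called in either fit, although without degrader 2 MTHFD1 (adjusted p = 0.042) and MTHFD1L (0.0349) passed as higher with total count scaling. SHMT1, cytosolic serine hydroxymethyltransferase, MTHFD1 and MTHFD1L, which interconvert folate-bound one-carbon units in the cytosol and release formate in mitochondria, and SLC19A1, the reduced folate carrier, had log2 fold changes between −0.03 and 0.09 with all libraries and between 0.09 and 0.20 without degrader 2. SLC19A1 had 78.1, 45.4, 74.8 and 69.3 CPM with the degrader, against 68.6, 73.03, 61.9 and 70.1 CPM in DMSO, and apart from degrader 2 the groups ran into each other. Among the kinases, NME2, a nucleoside diphosphate kinase, had 353, 102, 333 and 318 CPM with the degrader, against 249.8, 302, 161 and 274 CPM in DMSO. GUK1, which phosphorylates GMP, had 306, 123, 312 and 320.3 CPM with the degrader, against 258, 249, 185 and 254 CPM in DMSO. They were higher without degrader 2 (0.43 ± 0.16, adjusted p = 0.042 for NME2 and 0.39 ± 0.11, adjusted p = 0.0131 for GUK1). With it they were not called (0.17 ± 0.37, adjusted p = 0.84 for NME2 and 0.17 ± 0.29, adjusted p = 0.792 for GUK1). NME2 lost its call when DMSO 1 or 4 or any other degrader library was left out as well (adjusted p 0.0518 to 0.106). NME1, its sister, had 181, 186, 179.8 and 187 CPM with the degrader, against 221, 169.97, 248 and 185 CPM in DMSO and was not called (−0.18 ± 0.11, adjusted p = 0.218), nor was CMPK1, the UMP and CMP kinase (0.05 ± 0.09, adjusted p = 0.656). NME1 and NME2 also share sequence and a readthrough transcript, so their counts may be split between them.

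**Figure D3:**
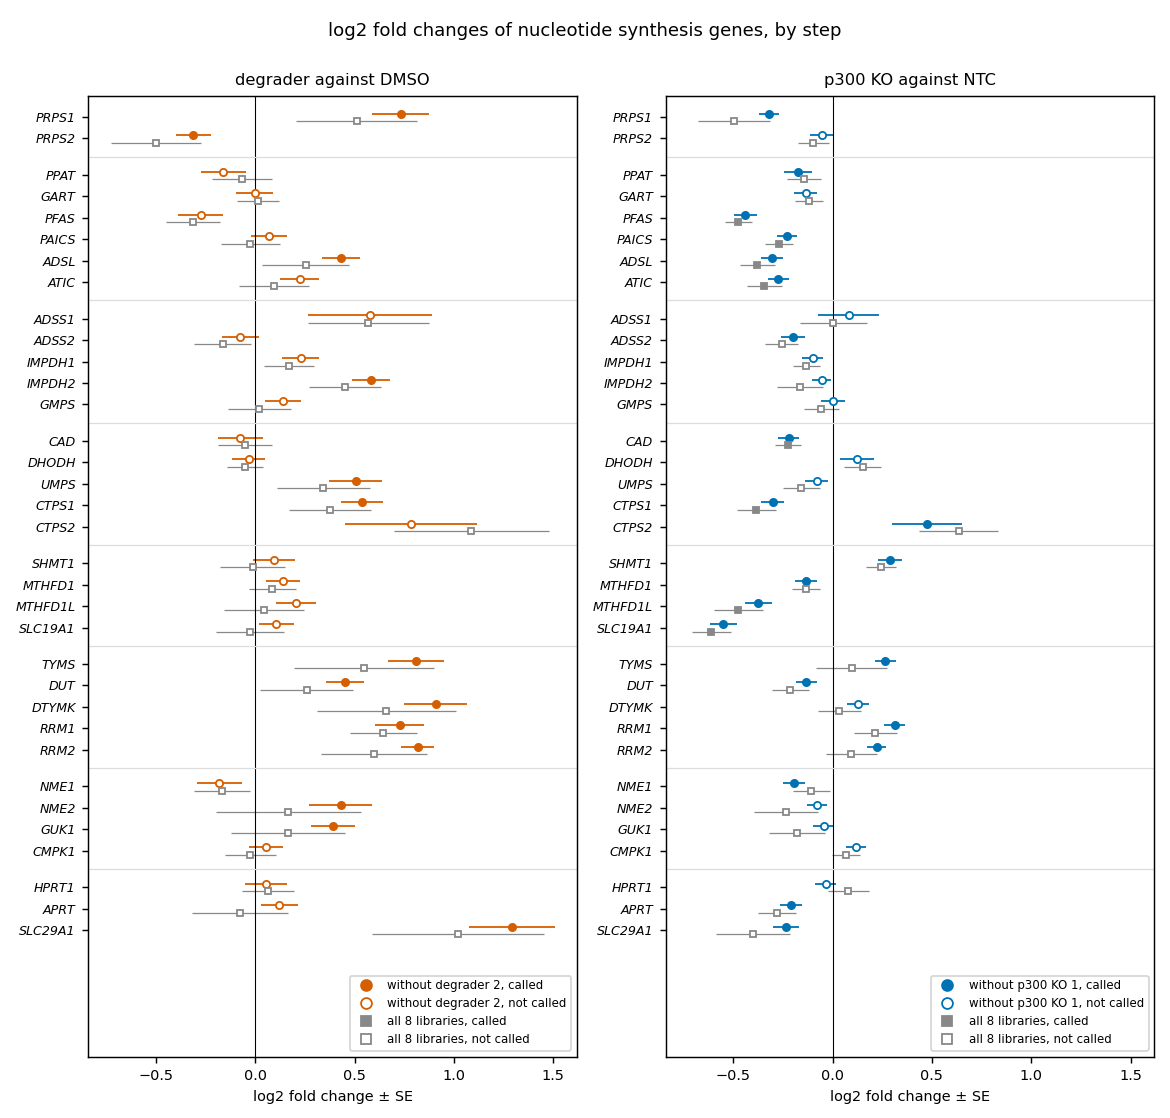
log2 fold change with its SE for each member, degrader against DMSO at left and p300 KO against NTC at right; circles leave out the mitochondria-rich library, squares use all 8 libraries, and filled symbols passed the adjusted threshold. At left, filled circles lie to the right of 0 for 13 genes and to the left for PRPS2; at right, 5 filled circles lie to the right of 0 and 16 to the left.

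The second comparison asked which of these genes differ in cells labelled p300 KO. With all 8 libraries, 8 members were lower and 0 higher, where 10.7% of the 17350 genes tested were lower and 6.23% were higher. The KO libraries lay below all NTC libraries in 12 members and above them in 1, against 16.1% and 12.5% of all genes. Of the members, 14 had an unadjusted p under 0.05, and DESeq2 called 10 lower and 2 higher, CTPS2 and SHMT1. DESeq2 called 12.8% of all genes lower and 10.1% higher. The 8 that edgeR called lower were PFAS, PAICS, ADSL and ATIC of the purine ring, CAD and CTPS1 of pyrimidine synthesis, and MTHFD1L and SLC19A1 of folate supply. The members' median log2 fold change was −0.15, against 0.02 for all genes. With total count scaling, which moved the median of all genes by −0.16, 0 members were called, 6 had an unadjusted p under 0.05, and the split over all genes was 61 higher and 1204 lower in place of 1081 and 1863.

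Without p300 KO 1, all 8 were again lower, and in all 16 members were lower and 5 higher, where 21.8% of the 17706 genes tested were lower and 19.1% higher. The 3 libraries lay below all NTC libraries in 13 members and above them in 7, against 22.1% and 20% of all genes. The members' median was −0.12, against 0.00 for all genes. PFAS and SLC19A1 were called in each leave-out of 1 library; the other 6 depended on the libraries used. The count of lower members was 2 without NTC 1, NTC 2 or NTC 4, 3 without NTC 3, 5 without p300 KO 2 or p300 KO 4, and 4 without p300 KO 3. Of all genes, 6.37 to 6.58% were lower when an NTC library was left out. It was 7.58 to 8.16% without p300 KO 2, p300 KO 3 or p300 KO 4.

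The purine ring was the step with the most lower genes, 4 of 6 with all libraries and 5 of 6 without p300 KO 1, and all 6 had a log2 fold change below 0 in both fits. PFAS had 33.8, 38.6, 38.03 and 36.8 CPM in p300 KO, against 52.2, 50.6, 53.1 and 48.96 CPM in NTC. Every KO library lay below every NTC library, p300 KO 1 or not, and the log2 fold change was −0.47 ± 0.07, adjusted p = 0.002 with all libraries and −0.44 ± 0.06, adjusted p = 3.31e-08 without p300 KO 1. ADSL had 48.5, 61.2, 61.7 and 61.2 CPM in p300 KO, against 79.7, 74.04, 71.9 and 77.1 CPM in NTC (−0.38 ± 0.09, adjusted p = 0.0192 with all libraries; −0.30 ± 0.05, adjusted p = 1.04e-05 without p300 KO 1). ATIC had 84.3, 98.9, 105 and 113 CPM in p300 KO, against 124, 126, 128 and 131 CPM in NTC (−0.34 ± 0.09, adjusted p = 0.0287 with all libraries; −0.27 ± 0.05, adjusted p = 3.29e-05 without p300 KO 1). PAICS had 119, 135, 133 and 136 CPM in p300 KO, against 165, 149, 158 and 159 CPM in NTC (−0.27 ± 0.07, adjusted p = 0.0274 with all libraries; −0.23 ± 0.05, adjusted p = 1.99e-04 without p300 KO 1). In these genes, too, the groups did not overlap. PPAT had 27.04, 23.8, 23.2 and 27.7 CPM in p300 KO, against 30.8, 26.7, 27.6 and 27.01 CPM in NTC; p300 KO 1 and p300 KO 4 lay among the NTC values, and it was lower without p300 KO 1 (−0.17 ± 0.07, adjusted p = 0.0445) but not with it (−0.14 ± 0.09, adjusted p = 0.265), a call that DESeq2 did not make (adjusted p = 0.0997) and that was lost without NTC 1, NTC 3, p300 KO 2 or p300 KO 3 (0.0548 to 0.219). PPAT and PAICS are neighbours that share a promoter region on opposite strands. GART had −0.14 ± 0.06, adjusted p = 0.0654 without p300 KO 1 and was not called, although it passed as lower when NTC 3 was left out as well (0.026).

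**Figure D4:**
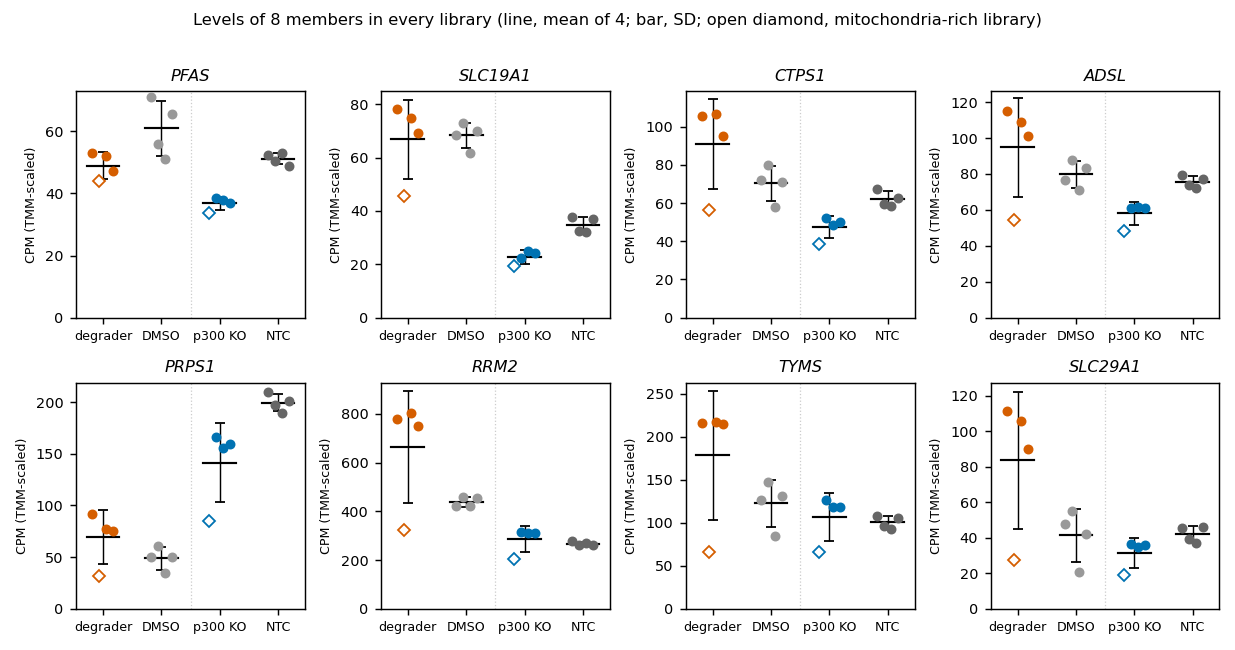
TMM-scaled CPM of PFAS, SLC19A1, CTPS1, ADSL, PRPS1, RRM2, TYMS and SLC29A1 in every library, with the mean and SD of 4 libraries; open diamonds mark degrader 2 and p300 KO 1. SLC19A1 lies at 19.4 to 25.0 CPM in p300 KO and at 32.1 to 37.8 CPM in NTC, and RRM2 at 752 to 805 CPM in 3 degrader libraries and at 421 to 457 CPM in DMSO.

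Folate supply held the largest decrease. SLC19A1 had 19.4, 22.3, 25.01 and 24.1 CPM in p300 KO, against 37.8, 32.3, 32.1 and 36.8 CPM in NTC, and the log2 fold change was −0.61 ± 0.10, adjusted p = 0.00362 with all libraries and −0.55 ± 0.07, adjusted p = 1.42e-08 without p300 KO 1. MTHFD1L had 17.9, 27.3, 22.97 and 26.4 CPM in p300 KO, against 34.3, 34.6, 29.6 and 33.7 CPM in NTC (−0.47 ± 0.12, adjusted p = 0.0297 with all libraries; −0.37 ± 0.07, adjusted p = 2.54e-05 without p300 KO 1). No KO library reached an NTC library in either gene. SHMT1 had 31.2, 35.3, 36.1 and 37.3 CPM in p300 KO, against 28.4, 28.6, 29.7 and 31.7 CPM in NTC. It was higher without p300 KO 1 (0.29 ± 0.06, adjusted p = 2.04e-04) but not with it (0.24 ± 0.08, adjusted p = 0.0567). MTHFD1 had 84.1, 84.4, 89.95 and 79.4 CPM in p300 KO, against 93.2, 84.3, 96.5 and 96.4 CPM in NTC, values that overlap, and passed the threshold only narrowly without p300 KO 1 (−0.13 ± 0.06, adjusted p = 0.0489), and not with it (−0.13 ± 0.07, adjusted p = 0.219); DESeq2 gave an adjusted p of 0.0902, and the call was lost without NTC 1, 3 or 4 or p300 KO 2 or 4 (0.0756 to 0.271). The spans of MTHFD1 and ZBTB25, introns included, overlap on opposite strands by 14352 bases.

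Of the pyrimidine genes, CTPS1 had 38.7, 52.1, 48.7 and 50.3 CPM in p300 KO, against 67.5, 59.4, 58.5 and 62.7 CPM in NTC. CAD had 71.9, 76.4, 67.8 and 74.4 CPM in p300 KO, against 88.9, 83.4, 80.4 and 86.4 CPM in NTC. Neither had overlapping groups, and the log2 fold changes were −0.38 ± 0.10, adjusted p = 0.0281 for CTPS1 and −0.22 ± 0.07, adjusted p = 0.0478 for CAD with all libraries, and −0.30 ± 0.06, adjusted p = 3.42e-05 for CTPS1 and −0.22 ± 0.05, adjusted p = 9.81e-04 for CAD without p300 KO 1. The sister gene CTPS2 had 4.55, 3.197, 2.43 and 3.27 CPM in p300 KO, against 2.41, 2.07, 2.01 and 2.01 CPM in NTC, with every KO library above NTC. With all libraries the fold change was 0.64 ± 0.20, adjusted p = 0.0567. It was higher without p300 KO 1 (0.48 ± 0.18, adjusted p = 0.0266), a call that DESeq2 did not make (adjusted p = 0.0604) and that was lost in leave-outs of NTC 2, 3 or 4 or p300 KO 2 or 4 (0.0515 to 0.115). UMPS had 31.01, 40.2, 40.5 and 39.2 CPM in p300 KO, against 43.7, 43.01, 40.1 and 41.97 CPM in NTC. DHODH had 15.9, 14.5, 15.8 and 13.5 CPM in p300 KO, against 13.98, 12.6, 12.3 and 14.7 CPM in NTC. Neither was called in either fit (−0.08 ± 0.06, adjusted p = 0.291 for UMPS and 0.12 ± 0.09, adjusted p = 0.262 for DHODH without p300 KO 1).

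Of the 5 deoxynucleotide genes, 3 were higher and 1, DUT, was lower in the KO without p300 KO 1. RRM1 had 64.3, 86.4, 91.5 and 89.2 CPM in p300 KO, against 75.5, 69.9, 67.9 and 72.9 CPM in NTC. RRM2 had 205, 316, 312 and 311 CPM in p300 KO, against 278, 262, 270.1 and 261 CPM in NTC. TYMS had 65.8, 126, 119 and 118 CPM in p300 KO, against 108, 96.6, 92.7 and 105 CPM in NTC. In each of them p300 KO 1 lay below all NTC libraries while the other 3 KO libraries lay above them. None was called with all libraries (0.21 ± 0.11, adjusted p = 0.195 for RRM1; 0.10 ± 0.13, adjusted p = 0.637 for RRM2; 0.10 ± 0.18, adjusted p = 0.731 for TYMS), and all 3 were higher without p300 KO 1 (0.31 ± 0.05, adjusted p = 4.44e-06 for RRM1; 0.22 ± 0.05, adjusted p = 1.75e-04 for RRM2; 0.27 ± 0.05, adjusted p = 7.92e-05 for TYMS). The TYMS neighbour ENOSF1 was higher in both fits (0.66 ± 0.16, adjusted p = 0.0229 with all libraries). DUT had 58.4, 73.6, 79.7 and 73.6 CPM in p300 KO, against 80.1, 82.7, 83.4 and 84.9 CPM in NTC. It was not called with all libraries (−0.21 ± 0.09, adjusted p = 0.143) and was lower without p300 KO 1 (−0.13 ± 0.05, adjusted p = 0.04) but not by DESeq2 (adjusted p = 0.0527) or without NTC 2, 3 or 4 or p300 KO 2 or 4 (0.0577 to 0.163). DTYMK had 50.003, 72.3, 65.2 and 66.1 CPM in p300 KO, against 63.2, 61.4, 58.5 and 64.95 CPM in NTC and was not called (0.13 ± 0.05, adjusted p = 0.0574), although it passed as higher when NTC 4, p300 KO 3 or p300 KO 4 was left out as well (0.0304 to 0.0468).

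PRPS1 had 84.5, 166, 155 and 159 CPM in p300 KO, against 209.8, 197, 189.6 and 201 CPM in NTC. All KO libraries were below all NTC libraries, p300 KO 1 by the widest margin, and the gene was lower without that library (−0.32 ± 0.05, adjusted p = 1.31e-06) but not with it (−0.50 ± 0.18, adjusted p = 0.091). PRPS2 had 35.3, 39.8, 39.4 and 41.99 CPM in p300 KO, against 44.5, 38.7, 42.9 and 41.4 CPM in NTC and was not called (−0.05 ± 0.06, adjusted p = 0.495). From IMP onward, ADSS2 had 36.8, 42.6, 44.2 and 45.9 CPM in p300 KO, against 54.96, 47.7, 50.4 and 49.5 CPM in NTC and was lower without p300 KO 1 (−0.20 ± 0.06, adjusted p = 0.00564) but not with it (−0.25 ± 0.08, adjusted p = 0.0647). IMPDH2 had 296, 402, 431 and 424 CPM in p300 KO, against 451, 424, 415 and 449 CPM in NTC. IMPDH1 had 61.1, 68.7, 69.98 and 65.1 CPM in p300 KO, against 74.8, 69.8, 71.1 and 74.98 CPM in NTC. ADSS1 had 2.71, 3.504, 4.38 and 2.91 CPM in p300 KO, against 3.24, 3.74, 3.303 and 3.33 CPM in NTC. In these 3 genes the groups overlapped, and neither they nor GMPS were called. The log2 fold changes without p300 KO 1 were −0.05 ± 0.05, adjusted p = 0.393 for IMPDH2 and −0.10 ± 0.05, adjusted p = 0.136 for IMPDH1. They were 0.00 ± 0.06, adjusted p = 0.994 for GMPS and 0.08 ± 0.15, adjusted p = 0.706 for ADSS1.

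In salvage and transport, SLC29A1 had 18.8, 36.6, 34.6 and 36.1 CPM in p300 KO, against 45.7, 39.1, 37.2 and 45.9 CPM in NTC. APRT had 108, 125, 149.7 and 129.5 CPM in p300 KO, against 154, 149, 155 and 165 CPM in NTC. Both were lower without p300 KO 1 (−0.23 ± 0.07, adjusted p = 0.00401 for SLC29A1; −0.21 ± 0.05, adjusted p = 0.00181 for APRT), and neither passed with all libraries (−0.40 ± 0.19, adjusted p = 0.161 for SLC29A1; −0.28 ± 0.10, adjusted p = 0.0775 for APRT). HPRT1 had 115, 83.7, 89.5 and 86.3 CPM in p300 KO, against 83.1, 87.5, 94.3 and 88.6 CPM in NTC and was not called (−0.03 ± 0.05, adjusted p = 0.651). Among the kinases NME1 had 98.6, 73.6, 84.4 and 78.2 CPM in p300 KO, against 87.9, 85.1, 96.1 and 90.7 CPM in NTC. It was lower without p300 KO 1, the highest library of the group (−0.19 ± 0.05, adjusted p = 0.00382), but not with it (−0.11 ± 0.10, adjusted p = 0.458); its call was lost when p300 KO 2 was left out as well (adjusted p = 0.0653). NME2 had 148, 251, 276 and 238 CPM in p300 KO, against 267, 263, 274 and 272 CPM in NTC. It was not called (−0.08 ± 0.05, adjusted p = 0.228), nor were GUK1 (−0.05 ± 0.05, adjusted p = 0.508) and CMPK1 (0.12 ± 0.05, adjusted p = 0.0538). CMPK1 passed as higher by DESeq2 (adjusted p = 0.0278), with DESeq2 size factors (0.0406) and when p300 KO 3 was left out as well (0.0368). NME2 passed as lower when p300 KO 3 was left out as well (0.0293).

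The difference between the effects, p300 KO minus NTC less degrader minus DMSO, was tested for each gene in 1 fit. With all 16 libraries 0 of the 34 members were called, where 2.82% of the 18068 genes tested were higher and 3.76% lower; 8 members had an unadjusted p under 0.05, and no other tool was run on this contrast. Without degrader 2 and p300 KO 1, 20 members were lower, meaning a more negative effect in the KO, and 0 were higher (21 had an unadjusted p under 0.05), where 16.7% of the 18432 genes tested were lower and 15.3% higher. Without degrader 2 alone 16 members were lower, where 12.7% of all genes were lower and 12.2% higher. Without p300 KO 1 alone it was 0, where 3.68% of all genes were lower and 3.49% higher. The members' median difference was −0.40 without both libraries, against 0.00 for all genes.

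All 5 deoxynucleotide genes were among the 20, with a larger effect under the degrader than in the KO, from RRM1 (−0.44 ± 0.14, adjusted p = 0.0209) to DTYMK (−0.80 ± 0.18, adjusted p = 0.00173). SLC29A1 (−1.55 ± 0.25, adjusted p = 4.75e-05), PRPS1 (−1.07 ± 0.16, adjusted p = 2.78e-05), CTPS1 (−0.86 ± 0.13, adjusted p = 1.80e-05) and ADSL (−0.76 ± 0.11, adjusted p = 1.78e-05) had opposite effects in the experiments, as did DUT (−0.61 ± 0.12, adjusted p = 3.15e-04), and each of these 5 was called higher with the degrader and lower in the KO. IMPDH2 (−0.66 ± 0.11, adjusted p = 1.12e-04), UMPS (−0.61 ± 0.15, adjusted p = 0.00403), NME2 (−0.53 ± 0.18, adjusted p = 0.0278) and GUK1 (−0.46 ± 0.13, adjusted p = 0.0105) had risen with the degrader and were not called in the KO. For SLC19A1 (−0.68 ± 0.12, adjusted p = 1.22e-04), MTHFD1L (−0.60 ± 0.13, adjusted p = 8.95e-04), ATIC (−0.52 ± 0.11, adjusted p = 0.00128) and PAICS (−0.33 ± 0.11, adjusted p = 0.0207) the KO effect was the called one. TYMS, RRM1 and RRM2 were called higher in both experiments, and no member was called lower in both. PFAS, which was lower in the KO and below 0 with the degrader, showed no called difference (−0.19 ± 0.13, adjusted p = 0.271). The experiments share no control libraries, but they differ in length of exposure and in their controls, so a difference between protein loss and gene loss cannot be told apart from these.

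**Figure D5:**
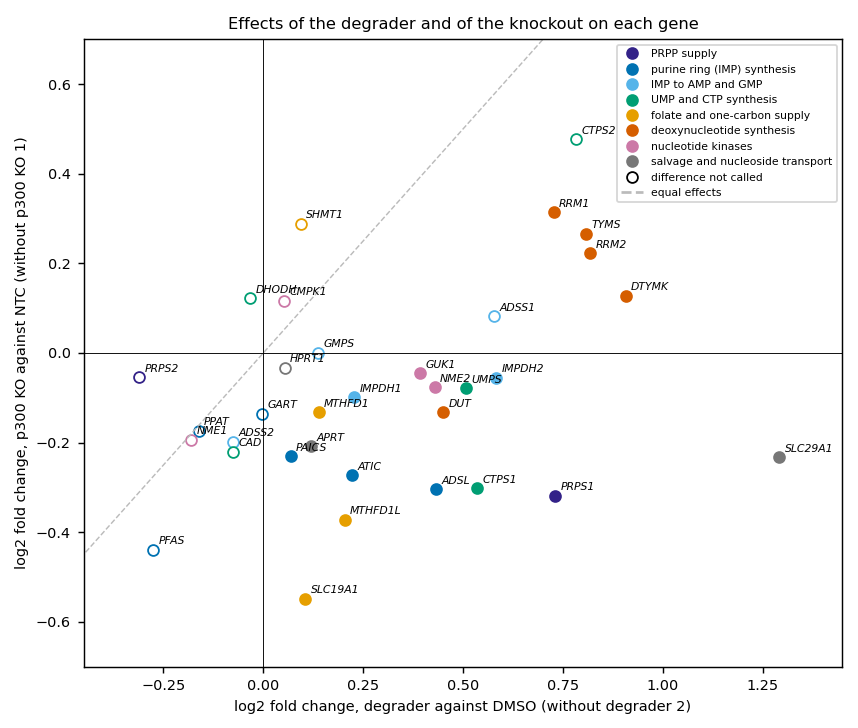
log2 fold change of each member with the degrader (x axis, without degrader 2) against that in p300 KO (y axis, without p300 KO 1), coloured by step, with filled symbols where the difference of the effects was called and a dashed line at equal effects. Of the 34 genes, 17 lie to the right of 0 and below it. To the right of and above it lie TYMS, RRM1 and RRM2, each called higher in both comparisons. ADSS1, GMPS, CTPS2, SHMT1, DTYMK and CMPK1 lie there too, none of them called higher in both.

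ADSL lies on the same chromosome arm as the targeted gene. In GRCh38, as the count tables place them, ADSL (ENSG00000239900) spans chr22:40346500-40390463 and EP300 (ENSG00000100393) chr22:41091786-41180079, both on the plus strand, with 701322 bases between them. The span of ADSL, introns included, overlaps that of SGSM3 on the same strand by 19873 bases. Part of the reads of ADSL could thus be counted for either gene or for neither. SGSM3 had 48.5, 76.8, 66.3 and 67.4 CPM in p300 KO, against 71.7, 76.4, 74.5 and 72.7 CPM in NTC, and was not called (−0.19 ± 0.12, adjusted p = 0.305 with all libraries; −0.08 ± 0.06, adjusted p = 0.284 without p300 KO 1). The size of the decrease of ADSL, −0.30 without p300 KO 1, lay within those of the other lower genes of the purine ring, between −0.44 for PFAS and −0.17 for PPAT. After group means were taken out, the members whose log2 CPM followed that of ADSL most closely over the 16 libraries were CTPS1 (Pearson r = 0.97), DUT, TYMS, RRM2 and SLC19A1. Over the 14 libraries without the mitochondria-rich ones they were UMPS (r = 0.94), RRM1, GART, PRPS1 and CTPS1. These correlations are descriptions of libraries that share depth and mitochondrial share, and only CTPS1 is in both lists.

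Another 75 genes of neighbouring routes were examined with the same fits: serine, glycine and mitochondrial folate enzymes, salvage kinases, enzymes that break down or clean nucleotide pools, and regulators of PRPP synthesis with other nucleoside transporters. With the degrader, 65 were tested, and 1 was higher and 0 lower with all libraries, where 1.64% of all genes were higher and 3.12% lower. It was PRPSAP1, which associates with the PRPP synthetases and restrains them, at 30.3 ± 3.61 CPM with the degrader and 20.9 ± 1.26 CPM in DMSO (mean ± SD, n = 4 each; 0.54 ± 0.12, adjusted p = 0.0354). Without degrader 2, 19 were higher and 5 lower, where 18.2% of all genes were higher and 20.3% lower. Those with the smallest p among the higher were GLDC, the glycine decarboxylase of the glycine cleavage system (0.97 ± 0.10, adjusted p = 9.89e-06), PSPH, the last enzyme of serine synthesis (0.80 ± 0.10, adjusted p = 3.25e-05), PRPSAP1 (0.60 ± 0.09, adjusted p = 2.05e-04) and MTFMT, which formylates the mitochondrial initiator tRNA (0.58 ± 0.10, adjusted p = 6.71e-04). Among the lower were AMPD3, an AMP deaminase (−0.88 ± 0.20, adjusted p = 0.0033), ALDH1L2, a mitochondrial folate dehydrogenase (−0.39 ± 0.09, adjusted p = 0.00347), TYMP, thymidine phosphorylase (−0.28 ± 0.09, adjusted p = 0.0214), and AMT, another part of the glycine cleavage system (−1.07 ± 0.38, adjusted p = 0.0357).

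In the KO, 68 of these 75 were tested, and 1 was higher and 8 lower with all libraries, where 6.23% of all genes were higher and 10.7% lower. ALDH1L1, the cytosolic folate dehydrogenase, averaged 19.9 ± 1.98 CPM in p300 KO and 13.5 ± 1.203 CPM in NTC (0.57 ± 0.10, adjusted p = 0.00514). The lower genes with the smallest p were NT5M, a mitochondrial nucleotidase (−1.14 ± 0.17, adjusted p = 0.00269), UPP1, uridine phosphorylase (−0.68 ± 0.13, adjusted p = 0.00702), UCK2, a uridine and cytidine kinase (−0.41 ± 0.08, adjusted p = 0.00869), and PNP, purine nucleoside phosphorylase, which averaged 62.1 ± 11.7 CPM in p300 KO and 97.7 ± 1.65 CPM in NTC (−0.65 ± 0.13, adjusted p = 0.00873). Without p300 KO 1, 10 were higher and 18 lower, where 19.1% of all genes were higher and 21.8% lower. The lower counts of the KO are thus near the share of genes in general. The difference of the effects was called lower for 17 and higher for 2 of the 68 tested without both mitochondria-rich libraries, where 16.7% of all genes were lower and 15.3% higher. GLDC was lower (−1.25 ± 0.12, adjusted p = 4.93e-08) and ALDH1L1 higher (0.90 ± 0.14, adjusted p = 4.36e-05) in that test. With all 16 libraries the test called 3 lower and 1 higher, where 3.76% of all genes were lower and 2.82% higher. They were AMPD1, another AMP deaminase (−0.78 ± 0.14, adjusted p = 0.00387), GLDC (−1.17 ± 0.33, adjusted p = 0.0448) and NME7 (−0.84 ± 0.24, adjusted p = 0.0465), which were lower, and ALDH1L1 (0.92 ± 0.21, adjusted p = 0.0152), which was higher.

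Promoter windows of 250 bases before annotated starts were read for 32 of the 34 members from RefSeq (GRCh38.p14), 55 windows in all, and searched for short motifs on both strands. The E-box CACGTG, which MYC and related factors bind, stood in a window of 6 members (18.8%) and in 7.73% of the 27305 genes in the table. By window, it stood in 12.7% of those of the members, against 6.34% of all windows. Because many of the members are known MYC targets, the stretch around each match is shown, 5′ to 3′ on the strand of the gene, with the E-box in capitals. They are ATIC at chr2:215312001-215312030 (plus strand), DHODH at chr16:72008573-72008602 (plus), MTHFD1 at chr14:64388323-64388352 (plus), MTHFD1L at chr6:150866320-150866349 (plus), PPAT at chr4:56435780-56435809 (minus) and SLC29A1 at chr6:44219365-44219394 (plus).
ATIC: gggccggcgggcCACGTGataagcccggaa
DHODH: gccgctactgcgCACGTGcacccaaccaga
MTHFD1: tggccagtccctaagCACGTGggttgggtt
MTHFD1L: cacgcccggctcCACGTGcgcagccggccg
PPAT: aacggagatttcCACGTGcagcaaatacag
SLC29A1: cagtgCACGTGctcccaggtctcagggagg

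Of these 6 genes, ATIC, MTHFD1, MTHFD1L, PPAT and SLC29A1 were lower in the KO without p300 KO 1, which makes 5 of the 15 lower genes with a window, against 0 of the 5 higher genes and 1 of the 12 that were not called. With all libraries it was 2 of 7 lower genes and 4 of 25 not called. Without p300 KO 1, the calls of PPAT and MTHFD1 were lost in 8 and 9 of 13 alternatives. The share among the lower genes thus depends on unstable calls. With the degrader, 1 of the 11 higher genes with a window held an E-box. The NRF1 motif, searched as its exact palindrome, was found in MTHFD1 alone among the members and in 1.28% of all genes, and TTTNNCGC, a form of the E2F motif, in 6 members (18.8%, against 7.15% of all genes). By window, TTTNNCGC stood in 12.7% of those of the members, against 5.92% of all windows.

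The box CCAAT, to which NF-Y binds, was found in 11 members, 34.4%, against 37.0% of all genes, and thus at about the share of genes in general. It stood in 3 of the 5 genes that were higher in the KO without p300 KO 1, in 5 of the 15 that were lower and in 3 of the 12 that were not called. The window of RRM1, higher in both experiments without those libraries, is shown whole as an example of the deoxynucleotide genes (GRCh38.p14, chr11:4094435-4094684, plus strand, CCAAT in capitals).
RRM1: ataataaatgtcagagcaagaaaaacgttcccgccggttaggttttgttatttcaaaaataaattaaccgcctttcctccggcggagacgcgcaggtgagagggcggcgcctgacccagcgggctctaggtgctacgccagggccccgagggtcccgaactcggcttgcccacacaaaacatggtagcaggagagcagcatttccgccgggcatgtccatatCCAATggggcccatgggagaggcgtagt
A match is a description of these letters and says nothing of what binds there in these cells.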

How the data were processed

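RNA came from a Qiagen kit, and library preparation used NEBNext Ultra II, per the labels' protocols. The authors deposited whole-number counts per gene, 1 table per library, with no normalization. The genome build was GRCh38, and the submitters' processing notes list STAR 2.5.2b, Trimmomatic 0.36, DESeq2 1.16.1 and Subread 1.5.2, with its featureCounts. Strand use, reads with several matches and the annotation release: not given in the sources used here. Without strand, a gene and its antisense partner cannot be told apart. Of 57500 genes, 56410 had a symbol, and 33 of 34 members had the position of GENCODE 29. Library totals were 12590308 to 23120350 counts, and intervals and floors cover counting error only.

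Counts were fitted with edgeR 4.0.16 in R 4.3.3 (filterByExpr, TMM scaling, quasi-likelihood test on group), each comparison on its own 8 libraries and the difference of effects on 16, with Benjamini-Hochberg adjustment over all genes tested and a threshold of 0.05. The SE is the absolute log2 fold change over the square root of F. CPM are TMM-scaled within a comparison, except those of cell type markers, which are over total counts, and levels per length, which are over non-mitochondrial counts. Counts were simulated with the sizes and spread of the libraries other than degrader 2 and p300 KO 1, which were left out of these fits. On them, the test of degrader against DMSO recovered 64 of 90 genes changed by 1 on the log2 scale and 106 of 110 changed by 2, among 15976 genes. That of p300 KO against NTC recovered 90 of 95 and 104 of 105 among 17369, and that of the difference 58 of 93 and 98 of 107 among 17830. Smaller changes, and fits with degrader 2 or p300 KO 1, were not simulated, so a member not called may still differ. DESeq2 1.42.0, other scalings, no filter, removal of mitochondrial counts, a replicate block and leave-outs of each library were alternatives. Fits on 7 or 14 libraries got the same alternatives, chosen after seeing the data. No pair of libraries agreed within sampling noise (chi-square per degree of freedom at least 2.17). The members and lists were chosen with earlier results of these data known. Every member may be named; of the 75 other genes, up to 4 each way per comparison with the smallest p were named, and ENOSF1 and SGSM3 were added after their values were seen.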

Additional observations from a re-analysis of the deposited data

Results flagged for a closer look

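Among 136 sets of 4 libraries, 1 per member and group, 18 held a library whose CPM stood apart by Dixon's criterion at the 95% level. Chance alone flags 5% of such sets. Of the 18, 8 were low values of degrader 2. There, PRPS2 measured 24.8 CPM (52.1 to 53.2 CPM in the other 3 libraries), TYMS 66.4 (214 to 218), DUT 73.7 (153 to 158), DTYMK 38.7 (111 to 121), RRM2 322 (752 to 805), NME2 102 (318 to 353), GUK1 123 (306 to 320) and APRT 109 (224 to 245). Another 7 were low values of p300 KO 1. There, PRPS1 measured 84.5 CPM (155 to 166 CPM in the other 3 libraries), PAICS 119 (133 to 136), ADSL 48.5 (61.2 to 61.7), UMPS 31.0 (39.2 to 40.5), TYMS 65.8 (118 to 126), RRM2 205 (311 to 316) and SLC29A1 18.8 (34.6 to 36.6). The remaining 3 were GUK1 in DMSO 3 (185 CPM, low), CTPS2 in NTC 1 (2.41 CPM, high) and GUK1 in NTC 4 (231 CPM, high).

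The effects of the KO and of the degrader differed for 20 members in the fit without the 2 mitochondria-rich libraries, by the test of the difference itself. The log2 difference, KO minus degrader, was −1.07 for PRPS1, −0.326 for PAICS, −0.761 for ADSL, −0.52 for ATIC, −0.351 for IMPDH1 and −0.664 for IMPDH2 among the purine genes. It was −0.609 for UMPS and −0.862 for CTPS1, and −0.298 for MTHFD1, −0.603 for MTHFD1L and −0.68 for SLC19A1 in the folate group. For the deoxynucleotide genes it was −0.566 (TYMS), −0.607 (DUT), −0.802 (DTYMK), −0.437 (RRM1) and −0.621 (RRM2). For the kinases and salvage genes it was −0.529 (NME2), −0.462 (GUK1), −0.355 (APRT) and −1.55 (SLC29A1).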

How the results depend on the processing

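With the degrader and all libraries, 755 genes were called, against 164 with total count scaling, 394 without a filter, 1796 by DESeq2, 2294 in 1 fit of 16 libraries and 197 to 6278 in the leave-outs. Higher members numbered 1 by DESeq2, 2 in 1 fit of 16 libraries and 0 to 13 in the leave-outs, and lower members 0 to 1. Of all genes, 5% were higher by DESeq2, 5.36% in 1 fit of 16 libraries and 0.29 to 18.2% in the leave-outs. Over the leave-outs 0.927 to 20.3% of all genes were lower. Without degrader 2, lower members numbered 0 with total count scaling and 0 to 2 in further leave-outs, where 15.1% and 12.7 to 21.7% of all genes were lower. In the KO, 2944 genes were called, against 1265 with total count scaling, 1484 in 1 fit of 16 libraries and 1542 to 7246 in the leave-outs. Lower members numbered 0 with total count scaling, 3 without a filter, 2 in 1 fit of 16 libraries and 2 to 16 in the leave-outs, and higher members 2 by DESeq2 and 0 to 5 in the leave-outs. Of all genes, 6.94% were lower with total count scaling, 4.15% without a filter and 6.67% in 1 fit of 16 libraries. In the leave-outs 6.37 to 21.8% of all genes were lower and 2.25 to 19.1% higher, and by DESeq2 10.1% were higher. The difference of effects called 1189 genes, against 319 with total count scaling, 585 without a filter, 5901 without both mitochondria-rich libraries and 766 to 4611 in the leave-outs. Lower members numbered 20 without both libraries and 0 to 16 in the leave-outs, where 16.7% and 2.41 to 12.7% of all genes were lower. Without both libraries, higher members numbered 0 to 1 in further leave-outs, where 10.6 to 15.8% of all genes were higher. No member called in a fit changed sign under the alternatives to that fit. RRM2 and TYMS, called higher without p300 KO 1, were not called with all libraries, where their fold change fell to −0.03 for RRM2 and −0.01 for TYMS in other alternatives. Signs of single members were not followed in the difference of effects. The causes were not tested. Counts of low members (7 to 101 for ADSS1, 8 to 73 for CTPS2) limit their precision.

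Libraries with the same replicate number shared only a number: the correlations of their deviations from the group means ran from −0.486 to 0.171 between degrader and DMSO and from −0.187 to 0.036 between KO and NTC. With the number as a replicate block, 24 genes were called with the degrader, 1304 in the KO and 306 in the difference. In these fits, 2 members were lower in the KO, against 5.54% of all genes. With the block and without degrader 2, 15 members were higher and 2 lower with the degrader, against 18.2% and 20.7% of all genes. Without p300 KO 1, 5 were higher and 14 lower in the KO, against 17.2% and 20.1%.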

Other observations

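The control groups of the experiments, which no test here compares, were unlike in some of these genes. PRPS1 averaged 28.1 ± 5.87 in DMSO and 104 ± 3.703 in NTC, and DHODH 5.801 ± 0.161 in DMSO and 2.29 ± 0.179 in NTC (non-mitochondrial CPM per kilobase, mean ± SD, n = 4 each). NME1 averaged 79.2 ± 14.6 in DMSO and 31.01 ± 1.76 in NTC on the same scale, whereas CMPK1 averaged 31.8 ± 2.79 in DMSO and 33.2 ± 0.715 in NTC. The transcript of the target itself, EP300, stood at 35.8, 45.3, 43.9 and 41.4 CPM in DMSO and at 99.97, 92.5, 91.03 and 94.6 CPM in NTC, scaled within each experiment.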
